A study of Homo sapiens with 6 samples.

Results

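The genes described here are the collagens, the laminins and the integrins of CAL51 cells, the matrix proteins and matrix receptors that hold an epithelial cell to what surrounds it. They were chosen by symbol alone, whatever their values: every row of the deposited expression table named as a numbered collagen chain, as a laminin alpha, beta or gamma chain, or as an integrin alpha or beta chain. Antisense transcripts and integrin-binding partners with similar symbols, 7 rows, were left out. This gave 63 of the 14788 genes in the table, made up of 32 collagens, 11 laminins and 20 integrins. CAL51 is an established cell line from a human breast carcinoma of the triple-negative type. Bulk polyadenylated RNA was compared in 6 libraries, 2 in each of 3 groups. The control group, labelled CAL51-Ctrl, is not described further in the labels. In the KO-1 and KO-2 groups TREX1, an exonuclease that degrades DNA in the cytosol, was targeted by CRISPR, and the groups carried different guide RNAs delivered by a lentivirus of the CRISPR v2 type. No drug or other agent is named for any of the 3 groups. A deposited read-me speaks of several knockout clones, but no source used here says whether a guide group was 1 clone, several or a pool. The labels do not state whether replicates came from separate cultures, and the p-values therefore refer to the spread among these 6 libraries, which may be technical.

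Collagens are triple helices of alpha chains. Fibrillar collagens bundle into cables, type IV collagen forms the mesh of the basement membrane, and smaller collagens decorate fibrils or cross the plasma membrane. Laminins are trimers of an alpha, a beta and a gamma chain that polymerise into the other sheet of the basement membrane, and they cannot assemble without a gamma chain. Integrins are pairs of an alpha and a beta chain in the plasma membrane: some bind laminin, some bind collagen, and those that recognise the RGD peptide bind fibronectin, vitronectin or latent TGF-beta. In breast epithelium these proteins anchor cells to the basement membrane, and integrin alpha6-beta4 joins laminin to keratin filaments at hemidesmosomes.

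The libraries held between 13222933 and 25785055 reads assigned to genes, so 1 read was worth between 0.0383 and 0.0767 CPM, the unit of reads scaled to library size. KO-2 replicate 1, the shallowest library, stood apart from the other 5 on the second principal component, with a score of -33.41 against 5.18 to 8.94. On the third component KO-2 replicate 2 stood apart, with a score of 21.62 against -7.87 to -0.74. The 2 KO-2 libraries differed from each other with an SD of 0.387 in log2 across genes, against 0.239 in control and 0.276 in KO-1. TREX1 itself was not analysed here, because no row bears its symbol, and the group labels stand without that check. Markers of an epithelial line were present, with EPCAM, CDH1, KRT8, KRT18 and KRT19 summing to between 1764 and 2214 CPM, and 4 of the 5 rose in the mean of the knockout groups (EPCAM not without control replicate 2, adjusted p = 0.266, or KO-1 replicate 1 or 2, 0.053 and 0.0681). The mesenchymal markers VIM, CDH2 and ZEB1 summed to 171 to 177 CPM in control, 196 to 201 in KO-1 and 192 to 216 in KO-2, and VIM was called higher (0.37, adjusted p = 0.0033, but 0.0692 without control replicate 2). Of the fibroblast markers the table holds 4, whose sum was 50.9 to 51.5 CPM in control, 42.9 to 46.6 in KO-1 and 46.6 to 50.1 in KO-2. Most of this sum was PDGFRB, while POSTN was below 1 CPM in every library. By limma 0 of the 3 tested were called: PDGFRB differed by -0.18, LUM by 0.17 and PDGFRA by 0.08. PDGFRB was the 1 with an unadjusted p under 0.05 and the 1 that voom, a weighted limma fit to the reads, called. Leukocyte markers, nearly all PTPRC, summed to 15.5 to 20.9 CPM and endothelial ones to 18.3 to 23.2. ERBB2, a receptor used to define triple-negative status, stood at 194 to 199 CPM in control, 163 to 164 in KO-1 and 177 to 188 in KO-2. Limma called ERBB2 and the endothelial CDH5 lower, but not with library medians set equal (adjusted p = 0.0618 and 0.0506).

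Compared per kilobase of annotated exon, a few genes carried most of each family's RNA. LAMC1, the gamma chain of most laminins, stood at 131 ± 10.4 CPM per kilobase in control (SD, n = 2), which was 38.8% of the summed laminin level. LAMA5, the widespread alpha chain of epithelial basement membranes, followed at 73.2 ± 6.35 and LAMB1, a beta chain that pairs with it, at 58.3 ± 1.75. ITGB1, the beta chain that pairs with most alpha chains, stood at 117 ± 0.22 CPM per kilobase, and ITGAV, the alpha chain of the vitronectin receptors, at 84.2 ± 0.46. Together with LAMC1 these were the leading chains of the laminin and integrin families. Before division by exon length ITGB1 and ITGAV were nearly level in control, at a log2 CPM of 9.46 and 9.46 against 9.44 and 9.43. Their gap per kilobase therefore rests mostly on annotated exon lengths of 6011 and 8211 bases, whose error the SD does not measure. The collagens were led by COL12A1, which coats collagen fibrils, at 105 ± 16.9 CPM per kilobase, followed by COL26A1 at 72.2 ± 2.31 and COL5A2, a regulator of fibril diameter, at 65.8 ± 2.53. The type IV chains COL4A1 and COL4A2 stood at 48.7 and 35.5 CPM per kilobase. COL1A2 and COL1A1, the chains of the commonest fibrillar collagen, were much lower, at 8.60 and 1.87. At the low end, 3 members did not pass the filter of 1 CPM in at least 2 libraries and were not tested: COL21A1 with 4 to 10 reads a library, COL8A2 with 2 to 12 and LAMB4 with 5 to 12.

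**Figure D1:**
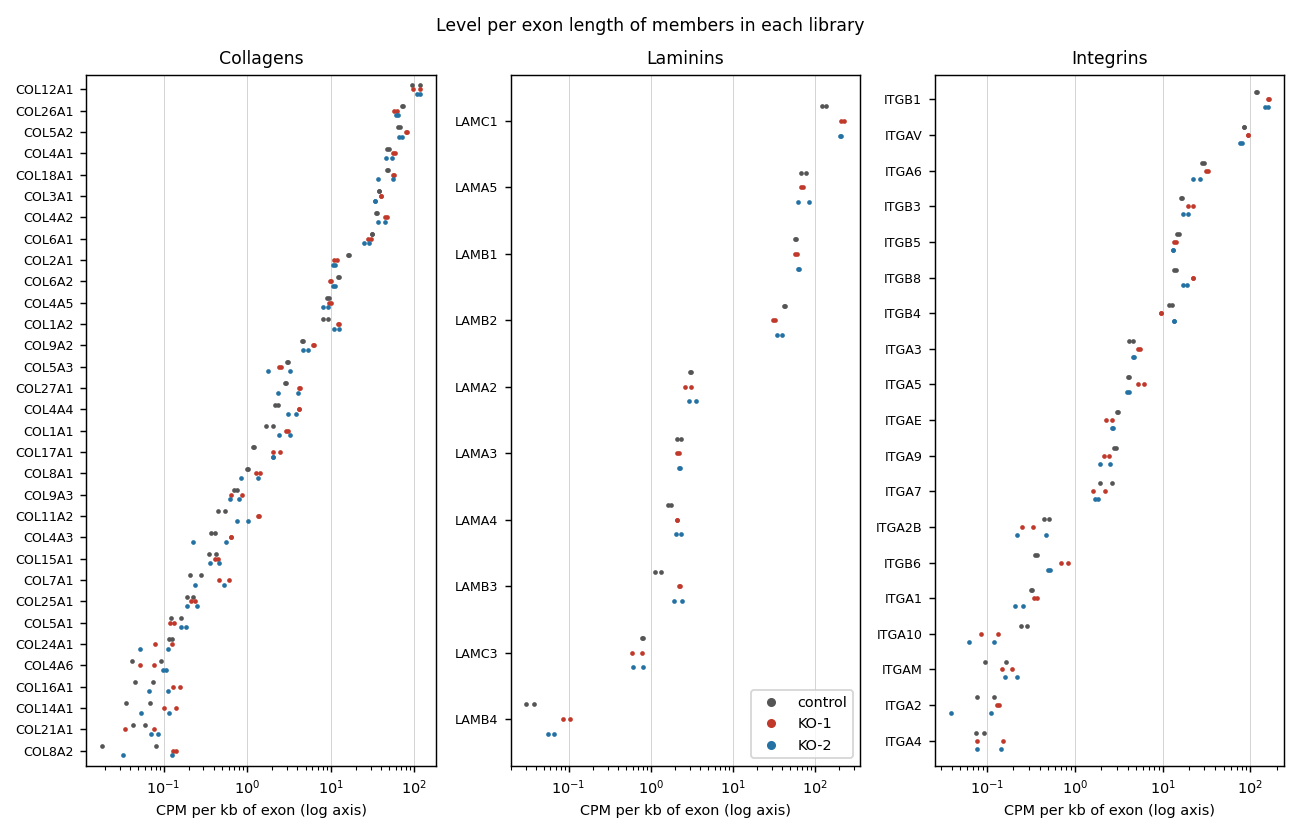
Levels of members per kilobase of annotated exon in control, KO-1 and KO-2 (CPM per kilobase, log axis), with 1 point per library. LAMC1, ITGB1 and COL12A1 lead the laminins, integrins and collagens, at 131, 117 and 105 CPM per kilobase in control.

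The main comparison set the mean of the KO-1 and KO-2 groups against control, with limma fitted to all 13765 genes that passed the filter and a call at a Benjamini-Hochberg adjusted p below 0.05. Of the 60 members tested, 16 were higher and 5 lower, which is 35% against a background of 29.6% of all genes tested. By direction, 26.7% of the members were called higher, where the background was 14.6%, and 8.33% lower, where it was 14.9%. The median log2 difference was 0.10 over the members and -0.01 over all genes tested. With the library medians set equal, the background split was 18.7% higher and 11.6% lower, and the members' count was 20 higher and 4 lower. Collagens had 8 higher and 3 lower of 30, laminins 4 higher and 1 lower of 10, and integrins 4 higher and 1 lower of 20. The lower integrin, ITGA10, passed the filter only through the control libraries, so that it had to be lower in the knockout groups, and it is no support for the count. Without overlap between the 4 knockout and the 2 control libraries were 16 members on the higher side and 9 on the lower, 41.7% of 60, where 46.3% of all genes tested lacked overlap (22.3% higher, 24% lower). The number of calls moved with single libraries: it was 9 without control replicate 1, 12 without control replicate 2, 13 without KO-1 replicate 1 and 33 without KO-2 replicate 1, the library that stood apart. The same settings gave calls for 9.34%, 11%, 18.7% and 42.6% of all genes tested. Without KO-2 replicate 1 the calls gained were COL4A1, COL4A3, COL7A1, COL8A1, COL16A1, COL18A1, COL27A1, ITGA3 and ITGA5, all higher, and ITGA9, ITGAE and ITGB5, all lower. Without KO-2 replicate 2 the calls gained were COL7A1, ITGA3, ITGA5 and ITGB1P1, all higher. COL5A3, COL6A1, ITGA2B, ITGA9, ITGB5 and LAMA5 were gained as lower. Leaving out either KO-2 library also raised the share of calls over all genes tested. A rise in the number of calls was thus not particular to the members or to KO-2 replicate 1. The directions of the gained calls were not compared with those over all genes tested.

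Taken 1 guide at a time, KO-1 against control called 21 members higher and 5 lower, 43.3% where the background was 29.7% (14.6% higher, 15.1% lower). KO-2 against control called 11 higher and 3 lower, 23.3% where the background was 16.9% (8.73% higher, 8.19% lower). These 2 comparisons share their control libraries and are not independent of each other. Of the members called for the mean, LAMB2, COL4A2, COL5A2, COL6A2, COL9A2, ITGB3 and ITGB6 were called with KO-1 alone but not with KO-2. LAMA4 was called with KO-2 (0.38, adjusted p = 0.044) but not with KO-1 (0.32, adjusted p = 0.059), and ITGA10 with neither. For KO-1 the count was 13 without control replicate 1, 16 without control replicate 2, and 15 and 16 without KO-1 replicates 1 and 2, with backgrounds of 12.3%, 13.8%, 13.6% and 13.5%. For KO-2 the count was 5 and 6 without control replicates 1 and 2, 9 without either KO-1 library, 24 without KO-2 replicate 1 and 28 without KO-2 replicate 2. The backgrounds of these 6 settings, in the same order, were 2.63%, 3.43%, 9.59% and 9.6%, 26.2% and 33.2%. The KO-2 split of 11 higher and 3 lower became 11 and 1 with library medians set equal (background 11.4% higher, 6.29% lower) and 11 and 6 with quantile normalization (8.81% and 8.21%). In the authors' deposited table of comparisons, at a false discovery rate below 0.05, 20 of the 63 members were higher and 5 lower in KO-1, and 11 were higher and 4 lower in KO-2, against backgrounds of 29% (14.2% higher, 14.8% lower) and 16.7% (8.59% and 8.07%) of that table's genes.

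**Figure D2:**
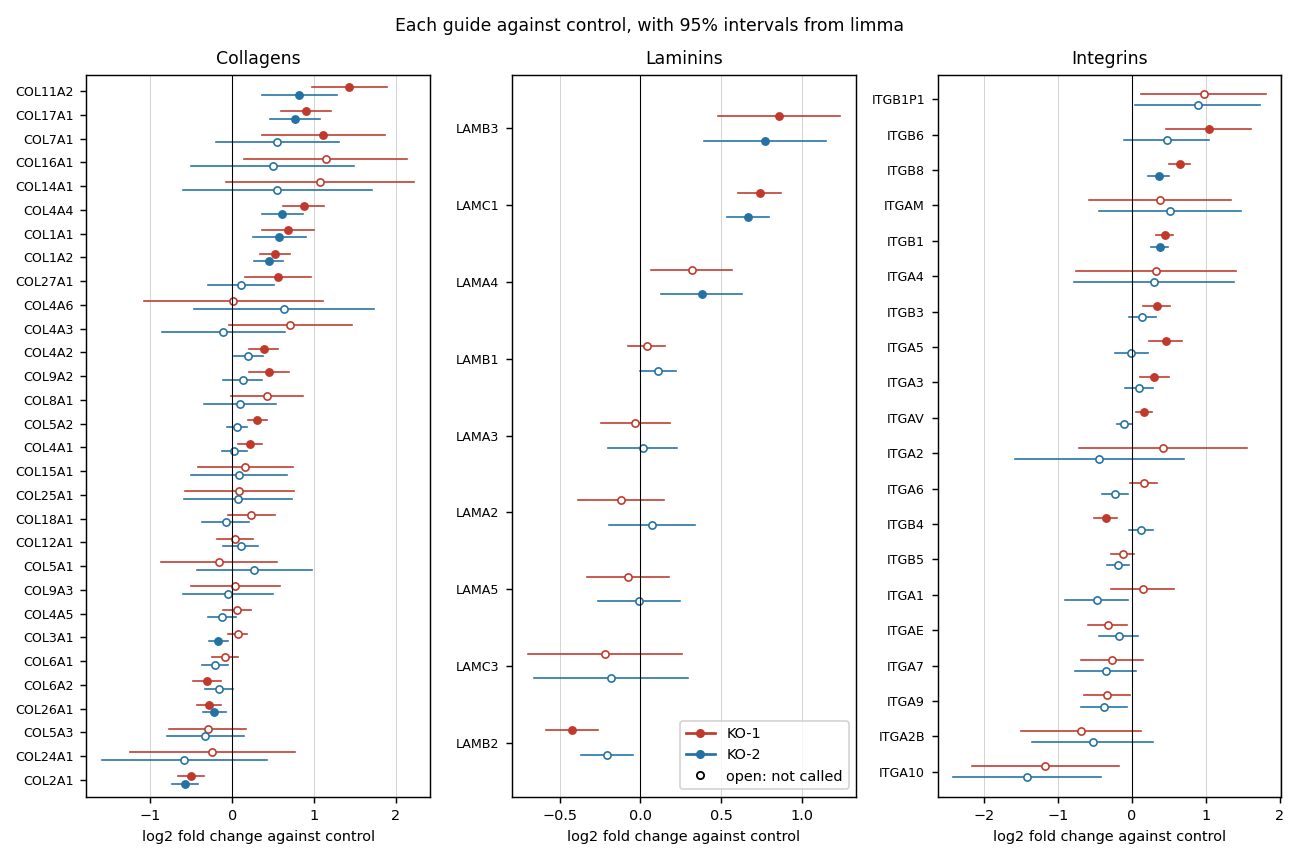
Log2 fold change against control (horizontal axis) of members tested, for KO-1 in red and KO-2 in blue, with 95% intervals from limma and filled points where the adjusted p was below 0.05. COL11A2 heads the collagens at 1.43 in KO-1 and 0.82 in KO-2, and COL2A1 is below 0 with both guides. ITGB4 has opposite signs, at -0.36 in KO-1 and 0.13 in KO-2, the latter not called. Both guides are set against the same control libraries.

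Among the laminins the most abundant chain rose. LAMC1 (chr1:183023460-183145592, GRCh38, plus strand) stood at a log2 CPM of 10.03 and 10.19 in control, 10.91 and 10.78 in KO-1, and 10.75 and 10.79 in KO-2, from 22524 to 35804 reads a library. All 4 knockout libraries lay above both controls, and the guides did not separate. The difference was 0.70 ± 0.05 in log2 (SE; 1.63-fold; adjusted p = 1.2e-05, limma), the smallest adjusted p of any member, in the gene that already led the laminins.

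LAMB3 (chr1:209614870-209652466, minus strand), a beta chain of epithelial laminin at hemidesmosomes, was a low gene with 117 to 225 reads a library. Its log2 CPM was 2.45 and 2.68 in control, 3.45 and 3.41 in KO-1, and 3.18 and 3.49 in KO-2. The groups did not overlap, and LAMB3 was 0.82 ± 0.15 higher (adjusted p = 0.0023), although without control replicate 1 the adjusted p was 0.057. LAMA3, an alpha chain that pairs with it, was not called: its difference was -0.01 with a 95% interval of -0.19 to 0.17 (adjusted p = 0.95). LAMA4 (chr6:112108760-112254939, minus strand), an alpha chain of mesenchymal and vascular laminins, stood at 4.22 and 4.37 in control, 4.62 and 4.61 in KO-1, and 4.78 and 4.57 in KO-2. It rose by 0.35 ± 0.10 (adjusted p = 0.023), a call that was lost without control replicate 1 (0.258), control replicate 2 (0.083), KO-1 replicate 1 (0.073) or KO-1 replicate 2 (0.067).

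LAMB2 (chr3:49121114-49133118, minus strand), a beta chain of synaptic, muscle and kidney basement membranes, went the other way. Its log2 CPM was 8.24 and 8.16 in control, 7.74 and 7.81 in KO-1, and 7.88 and 8.11 in KO-2. Every knockout library lay below both controls, KO-2 replicate 2 by the least, and the difference was -0.32 ± 0.06 (adjusted p = 0.004). The adjusted p was 0.080 without control replicate 1. With KO-1 alone LAMB2 was called (-0.43, adjusted p = 0.0017), and with KO-2 alone it was not (-0.21, adjusted p = 0.077). LAMB2 lies 653469 bases from TREX1 on chromosome 3, and whether the edited locus bears on it was not tested. LAMA5, LAMB1, LAMA2 and LAMC3 were not called. LAMA5 stood at 9.94 and 10.12 in control, 9.99 and 9.91 in KO-1, and 9.78 and 10.25 in KO-2, so the KO-2 libraries spanned the range of the other groups, and its interval was -0.26 to 0.18. Without KO-2 replicate 2 the difference was -0.16 and called (adjusted p = 0.00395), and without KO-2 replicate 1 it was 0.07 and not called. LAMB1 differed by 0.07 (adjusted p = 0.24), LAMA2, the alpha chain of muscle laminin, by -0.02 (adjusted p = 0.89), and LAMC3 by -0.20 (adjusted p = 0.46).

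The sequences before the starts of LAMC1 and LAMB3 are shown because these were the laminins with the largest differences. Each is the 250 bases upstream of the RefSeq start in GRCh38.p14, read 5′ to 3′ on the gene's own strand, with GC boxes (GGGCGG on either strand) in capitals. LAMC1 is chr1:183023170-183023419 on the plus strand and LAMB3 is chr1:209652426-209652675 on the minus strand. LAMC1 holds 3 GC boxes in this window and LAMB3 holds 1.
LAMC1: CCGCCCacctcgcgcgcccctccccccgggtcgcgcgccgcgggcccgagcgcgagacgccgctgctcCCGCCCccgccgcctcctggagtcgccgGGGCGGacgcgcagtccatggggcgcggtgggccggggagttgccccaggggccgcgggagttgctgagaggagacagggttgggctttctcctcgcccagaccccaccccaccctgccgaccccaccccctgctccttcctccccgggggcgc
LAMB3: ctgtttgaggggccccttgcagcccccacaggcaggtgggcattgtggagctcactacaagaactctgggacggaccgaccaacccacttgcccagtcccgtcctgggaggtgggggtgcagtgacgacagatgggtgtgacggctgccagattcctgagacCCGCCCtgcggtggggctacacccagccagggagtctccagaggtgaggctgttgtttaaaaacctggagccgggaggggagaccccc

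RefSeq promoters were matched for 46 of the 63 members. The GC box was present in 27 of these (58.7%), where 42.6% of all 35116 promoters of the same length held it. The CCAAT box (CCAAT, both strands) was in 10 (21.7%, against 32.0%) and the TATA box (TATAAA, both strands) in 4 (8.70%, against 10.7%). The AP-1 motif TGANTCA was found in 1 member promoter, that of LAMA3, where 6.57% of all promoters held it. These counts describe letters in a window of 250 bases, not binding. Each member was counted once, while the background took every promoter, with no limit on repeats or gene type, so the sets are unlike. COL1A1, COL1A2, COL2A1 and COL3A1 were among the members without a matched promoter.

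Of the 10 fibrillar collagens, 4 were higher and 1 was lower. COL11A2 (chr6:33162681-33192499, minus strand), a chain of cartilage fibrils, stood at 1.90 and 1.64 in control, 3.18 and 3.23 in KO-1, and 2.37 and 2.83 in KO-2, on 66 to 171 reads a library. The KO-1 libraries were highest and the KO-2 libraries lay between them and control without overlap. COL11A2 rose by 1.13 ± 0.18 (2.19-fold; adjusted p = 0.0012), the largest increase among the called members. The same gene differed by -0.61 between KO-2 and KO-1, with an adjusted p of 0.18.

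Both chains of type I collagen, the main fibre of skin and bone, rose. COL1A2 (chr7:94394561-94431232, plus strand) stood at 6.49 and 6.68 in control, 7.09 and 7.12 in KO-1, and 6.93 and 7.12 in KO-2, which is a difference of 0.49 ± 0.07 (adjusted p = 0.00074). COL1A1 (chr17:50183289-50201632, minus strand) stood at 4.06 and 4.34 in control, 4.94 and 4.84 in KO-1, and 4.57 and 4.99 in KO-2, a difference of 0.63 ± 0.13 (adjusted p = 0.0039). For both chains every knockout library was above both controls. Without control replicate 1 the adjusted p of COL1A1 was 0.085. Beside them stood the rise of VIM and the uncalled differences of PDGFRB, LUM and PDGFRA given above, and the part of other cells or of a cell state in the type I collagen values was not tested. Bulk RNA cannot tell more expressing cells from more RNA per cell.

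COL5A2 was called 0.18 ± 0.05 higher (adjusted p = 0.014), yet its groups overlapped: 8.90 and 8.98 in control, 9.26 and 9.23 in KO-1, and 8.94 and 9.05 in KO-2. The call was lost without control replicate 1 (0.213), control replicate 2 (0.061), KO-1 replicate 1 (0.072) or KO-1 replicate 2 (0.053), and with quantile normalization (0.168). With KO-2 alone COL5A2 was not called (0.06, adjusted p = 0.50). COL2A1 (chr12:47972965-48004554, minus strand), the defining collagen of cartilage, fell. Its log2 CPM was 6.75 and 6.79 in control, 6.33 and 6.21 in KO-1, and 6.16 and 6.22 in KO-2, on 933 to 2881 reads. All knockout libraries lay below the controls at similar values with both guides, and the difference was -0.54 ± 0.06 (1.45-fold lower; adjusted p = 0.00017). COL2A1 and COL11A2, which share cartilage fibrils, therefore moved in opposite directions. COL3A1, the fibrillar collagen of vessels and stretchable tissues, differed by -0.05 for the mean of both guides (adjusted p = 0.42). The guides had opposite signs: KO-2 alone was called lower (-0.17, adjusted p = 0.044), and KO-1 alone was not called (0.07, adjusted p = 0.36). COL5A1, COL5A3, COL24A1 and COL27A1 were not called, with differences between -0.41 and 0.34. COL27A1 was called higher without KO-2 replicate 1 (0.53, adjusted p = 1.54e-06) and COL5A3 lower without KO-2 replicate 2 (-0.53, adjusted p = 0.00026).

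Type IV collagen chains are encoded as head-to-head gene pairs. COL4A4 (chr2:227002711-227164453, minus strand), a chain of the kidney and lung mesh, stood at 4.57 and 4.46 in control, 5.39 and 5.38 in KO-1, and 4.98 and 5.29 in KO-2. No knockout library overlapped the controls, and COL4A4 rose by 0.74 ± 0.10 (adjusted p = 0.0004). COL4A3, its partner in the protein and on the chromosome, with starts 418 bases apart, had 27 to 107 reads: 1.78 and 1.95 in control, 2.59 and 2.57 in KO-1, and 1.12 and 2.40 in KO-2. KO-2 replicate 1 was the lowest of the 6 and KO-2 replicate 2 was near KO-1, so COL4A3 differed by 0.30 with an interval of -0.35 to 0.95 (adjusted p = 0.48). Without KO-2 replicate 1 it differed by 0.62 (adjusted p = 0.00954).

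COL4A1 and COL4A2 form the basement membrane mesh of nearly all tissues. COL4A2 stood at 9.39 and 9.45 in control, 9.84 and 9.76 in KO-1, and 9.47 and 9.77 in KO-2. It was 0.29 ± 0.07 higher (adjusted p = 0.0098), a call that was lost without control replicate 1 (0.114), control replicate 2 (0.053) or KO-1 replicate 1 (0.058), and with quantile normalization (0.0624). With KO-2 alone COL4A2 was not called (0.20, adjusted p = 0.12). COL4A1 stood at 9.46 and 9.52 in control, 9.74 and 9.66 in KO-1, and 9.41 and 9.63 in KO-2, so KO-2 replicate 1 lay below control. The COL4A1 difference of 0.12 ± 0.06 was not called (adjusted p = 0.14). Without that library it was 0.18 and called (adjusted p = 0.000323). The stretch between their 2 starts is shown because 1 sequence of 126 bases separates the pair: chr13:110307158-110307283, RefSeq GRCh38.p14, written on the plus strand, with COL4A1 leaving to the left and COL4A2 to the right. Capitals mark a CCAAT box and a GC box.
COL4A1 to COL4A2: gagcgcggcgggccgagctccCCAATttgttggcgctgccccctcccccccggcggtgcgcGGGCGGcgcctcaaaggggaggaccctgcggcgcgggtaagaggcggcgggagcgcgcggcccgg
The other network collagens, COL4A5, COL4A6 and COL8A1, were not called, with differences of -0.03, 0.32 and 0.26, and COL8A1 was called without KO-2 replicate 1 (0.43, adjusted p = 0.00754).

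COL17A1 (chr10:104031286-104085957, minus strand) is the transmembrane collagen of hemidesmosomes and a partner of integrin alpha6-beta4. It stood at 3.06 and 3.11 in control, 4.12 and 3.87 in KO-1, and 3.85 and 3.85 in KO-2, on 187 to 288 reads. The knockout libraries formed 1 group well above control, and COL17A1 rose by 0.84 ± 0.12 (1.79-fold; adjusted p = 0.00067). Its upstream 250 bases are shown because its rise was the largest among the called members outside the fibrillar collagens and because, unlike the laminin promoters above, they hold no GC box. The stretch is chr10:104085881-104086130 of RefSeq GRCh38.p14 on the minus strand, and capitals mark the TATA box and the CCAAT box, the latter read on the opposite strand.
COL17A1: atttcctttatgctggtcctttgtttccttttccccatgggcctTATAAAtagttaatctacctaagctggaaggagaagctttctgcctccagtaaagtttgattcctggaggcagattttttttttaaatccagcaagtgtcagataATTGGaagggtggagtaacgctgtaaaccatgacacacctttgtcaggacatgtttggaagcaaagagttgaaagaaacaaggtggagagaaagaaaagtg
COL7A1, which builds the anchoring fibrils under hemidesmosomes, stood at 1.25 and 1.66 in control, 2.39 and 2.75 in KO-1, and 1.44 and 2.57 in KO-2. KO-2 replicate 1 fell within the controls, and the difference of 0.83 ± 0.30 had an adjusted p of 0.054. It was called with library medians set equal (0.0392), quantile normalization (0.0427), voom (0.0407) and 1 CPM added before the log2 (0.0499), and without KO-2 replicate 1 (0.000259) or KO-2 replicate 2 (0.0481). KO-1 alone was 1.11 above control (adjusted p = 0.030), a call lost without KO-1 replicate 1 (0.0934), KO-1 replicate 2 (0.208), control replicate 1 (0.191) or control replicate 2 (0.0651). COL7A1 lies 96428 bases from TREX1, and whether the edited locus bears on it was not tested.

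Among the smaller collagens, COL26A1 (chr7:101362820-101559024, plus strand), a secreted collagen of less known function, was the second most abundant collagen per kilobase in control. It stood at 7.86 and 7.80 in control, 7.61 and 7.48 in KO-1, and 7.57 and 7.66 in KO-2. All knockout libraries were lower, and the difference was -0.25 ± 0.06 (adjusted p = 0.0069), lost without control replicate 1 (0.125) or control replicate 2 (0.051). COL6A2 (chr21:46098097-46132849, plus strand), a chain of the beaded filaments around cells, stood at 6.03 and 6.08 in control, 5.72 and 5.78 in KO-1, and 5.94 and 5.84 in KO-2. Its groups did not overlap either. With KO-2 alone it was not called (-0.16, adjusted p = 0.17), and for the mean of both guides it fell by 0.23 ± 0.07 (adjusted p = 0.022). The call was lost without control replicate 1 (0.133), control replicate 2 (0.23), KO-1 replicate 1 (0.083) or KO-1 replicate 2 (0.059), and with library medians set equal (0.052). Its partner COL6A1 differed by -0.15 (adjusted p = 0.11), also with every knockout library below both controls, and was called by voom (0.0408) and without KO-2 replicate 2 (0.00153).

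COL9A2, a fibril-surface collagen of cartilage, was 0.29 ± 0.09 higher (adjusted p = 0.040), from 4.29 and 4.25 in control to 4.70 and 4.74 in KO-1 and 4.31 and 4.48 in KO-2. KO-2 replicate 1 lay only just above control, and the call was lost without control replicate 1 (0.195), control replicate 2 (0.259), KO-1 replicate 1 (0.093) or KO-1 replicate 2 (0.108). With KO-2 alone COL9A2 was not called (0.13, adjusted p = 0.45). COL12A1, the leading collagen, stood at 10.18 and 10.51 in control, 10.51 and 10.26 in KO-1, and 10.40 and 10.51 in KO-2. Its 3 groups covered the same range, and the interval of the difference was -0.12 to 0.26 (adjusted p = 0.59). COL14A1, COL16A1, COL9A3, COL15A1, COL18A1 and COL25A1 were not called. Without KO-2 replicate 1, COL18A1 was called at 0.22 (adjusted p = 4.63e-05) and COL16A1 at 0.99 (adjusted p = 0.0462). COL14A1 and COL16A1 passed the filter only through knockout libraries, with 6 and 8 reads in their lowest library, and COL18A1 shares 16.4% of its exonic bases with SLC19A1 on the other strand, whose reads could not be told apart without strand.

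**Figure D3:**
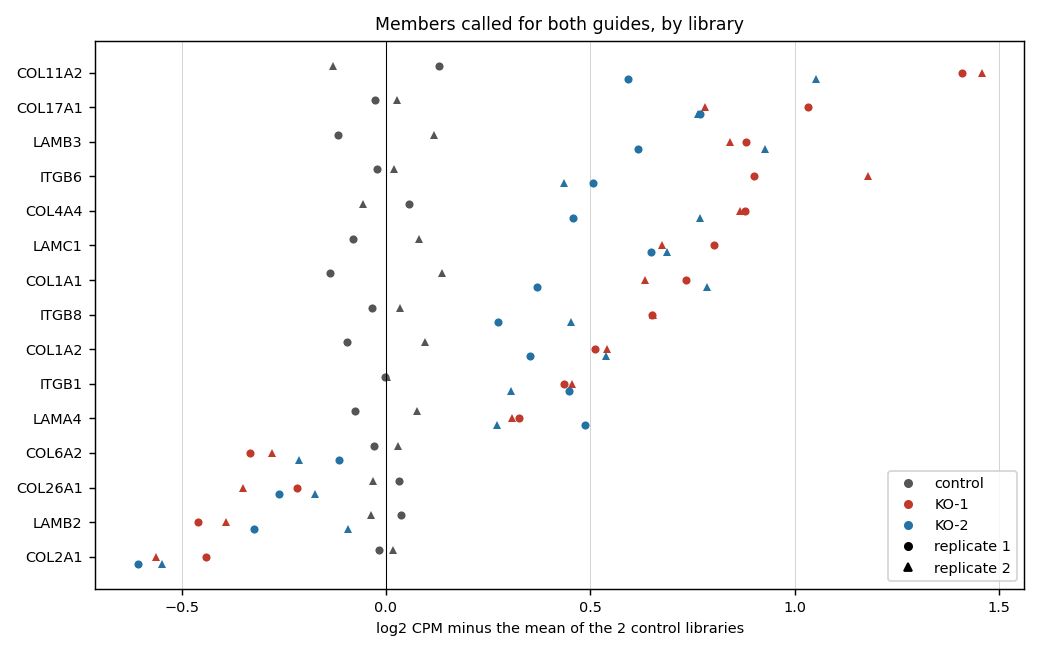
Log2 CPM of 15 members called for the mean of both guides, in each library, minus the mean of the 2 control libraries. Circles are replicate 1 and triangles replicate 2. Taken alone, KO-2 gave no call for LAMB2, COL6A2 and ITGB6, and KO-1 none for LAMA4. LAMC1, COL17A1 and COL4A4 lie above control in all 4 knockout libraries, and COL2A1 and LAMB2 lie below control in all 4.

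Of the integrins, ITGB1 (chr10:32900319-33005792, minus strand), the shared beta chain of the collagen, laminin and fibronectin receptors, rose. It stood at 9.46 and 9.46 in control, 9.90 and 9.92 in KO-1, and 9.91 and 9.77 in KO-2, on 12541 to 18444 reads. The controls were equal to the second decimal and all knockout libraries lay above them. The difference was 0.41 ± 0.05 (1.33-fold; adjusted p = 0.00014). Its processed pseudogene ITGB1P1, whose reads may in part be those of ITGB1, had few reads and differed by 0.93 ± 0.33 (adjusted p = 0.055). It was called with library medians set equal (0.0422) and without KO-2 replicate 2 (0.000747).

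Beside it 3 beta chains of RGD receptors rose, ITGB8, ITGB6 and ITGB3, with 0 lower among the 7 RGD receptor chains, where the background was 14.6% higher and 14.9% lower. With KO-1 alone 5 of the 7 were called higher, with KO-2 alone 1 was, ITGB8, and the median over the 7 was 0.34 in KO-1 and -0.01 in KO-2. ITGB8 (chr7:20330702-20415754, plus strand), which with ITGAV binds latent TGF-beta, stood at 7.69 and 7.76 in control, 8.38 and 8.38 in KO-1, and 8.004 and 8.18 in KO-2. The KO-1 libraries were highest, KO-2 lay between, and nothing overlapped. ITGB8 rose by 0.51 ± 0.06 (1.42-fold; adjusted p = 0.00014), and KO-2 differed from KO-1 by -0.29 (adjusted p = 0.059).

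ITGB6 (chr2:160099666-160200313, minus strand), another receptor chain for latent TGF-beta and one of epithelia, had only 32 to 73 reads a library. It stood at 0.83 and 0.87 in control, 1.75 and 2.03 in KO-1, and 1.35 and 1.28 in KO-2, with the same order of groups as ITGB8. KO-2 alone was not called (0.47, adjusted p = 0.25). The difference was 0.76 ± 0.23 (adjusted p = 0.029), and it was lost without control replicate 1 (0.19), control replicate 2 (0.161), KO-1 replicate 1 (0.053) or KO-1 replicate 2 (0.095). ITGB6 shares 20.6% of its exonic bases with AC092153.1 on the same strand.

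ITGB3, the beta chain of the vitronectin and platelet receptors, stood at 6.17 and 6.20 in control, 6.61 and 6.43 in KO-1, and 6.25 and 6.41 in KO-2, without overlap. It was 0.24 ± 0.07 higher (adjusted p = 0.028), which was lost without control replicate 1 (0.211), control replicate 2 (0.149) or KO-1 replicate 1 (0.115). With KO-2 alone ITGB3 was not called (0.14, adjusted p = 0.27). As 51.6% of its exonic bases are shared with AC068234.1 on the same strand, its reads are uncertain. ITGB5 was below both controls in all knockout libraries but not called (-0.15, adjusted p = 0.074). It was called by voom (0.0258) and without KO-2 replicate 1 (0.0233) or KO-2 replicate 2 (0.0197). ITGA2B, the platelet alpha chain, differed by -0.61 (adjusted p = 0.18, and 0.0157 without KO-2 replicate 2).

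ITGA10, a collagen receptor of cartilage, had 8 to 42 reads a library: 0.93 and 0.71 in control, -0.08 and -0.63 in KO-1, and -0.20 and -1.003 in KO-2. All 4 knockout libraries were below both controls, a difference of -1.30 ± 0.39 that is given as a description only. The gene entered the test only through its 2 control libraries, the ones at or above 1 CPM. The other collagen receptor chains, ITGA1 and ITGA2, differed by -0.17 and -0.01 and were not called. Neither were ITGA4 and ITGA9, which bind VCAM1 and tenascin, with 0.32 and -0.35 (adjusted p = 0.051 for ITGA9), nor the leukocyte chains ITGAE and ITGAM, with -0.25 and 0.45. ITGA9 was called lower by voom (0.0125), with a filter at a mean log2 CPM of 2 (0.0496), and without KO-2 replicate 1 (0.00102) or KO-2 replicate 2 (0.035). ITGAE was called lower by voom (0.0363) and without KO-2 replicate 1 (0.042). The 4 laminin receptor chains ITGA3, ITGA6, ITGA7 and ITGB4 gave 0 calls for the mean of both guides by limma and 0 by voom (1, ITGA3, had an unadjusted p under 0.05), and their differences lay between -0.31 and 0.20. ITGA3 was called higher with library medians set equal (0.0304), with quantile normalization (0.0441), and without KO-2 replicate 1 (0.0171) or KO-2 replicate 2 (0.0309).

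The comparison of KO-2 with KO-1 asks where the 2 guides differ and sets no control library against either. It called 1 member higher and 2 lower of 60, which is 5% where the background was 1.14% of all genes tested (0.334% higher, 0.806% lower), and all 3 were integrin chains. ITGB4 (chr17:75721328-75757818, plus strand), the chain that ties laminin to keratin, stood at 6.31 and 6.46 in control, 6.04 and 6.02 in KO-1, and 6.51 and 6.51 in KO-2. KO-1 lay below control and KO-2 just above it, so that KO-2 exceeded KO-1 by 0.48 ± 0.07 (adjusted p = 0.014). ITGA6 (chr2:172427354-172506282, plus strand), its obligate partner, did the reverse: 7.53 and 7.58 in control, 7.76 and 7.67 in KO-1, and 7.46 and 7.19 in KO-2. KO-1 was above control and KO-2 below, a difference of -0.39 ± 0.08 (adjusted p = 0.047). ITGAV (chr2:186590065-186680901, plus strand) stood at 9.44 and 9.43 in control, 9.60 and 9.60 in KO-1, and 9.29 and 9.38 in KO-2. Its KO-2 libraries were likewise the lowest, by -0.27 ± 0.05 against KO-1 (adjusted p = 0.027). Against control, ITGA6 was called with neither guide (KO-1 0.16, adjusted p = 0.16, and KO-2 -0.23, adjusted p = 0.074). With KO-2, ITGB4 (0.13, adjusted p = 0.27) and ITGAV (-0.10, adjusted p = 0.17) were not called against control either. With KO-1, ITGB4 was called lower (-0.36, adjusted p = 0.0043) and ITGAV higher (0.17, adjusted p = 0.024).

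These 3 calls depended on single libraries and on the mean-variance trend, without which the adjusted p was 0.212, 0.273 and 0.255 for ITGB4, ITGA6 and ITGAV. With a filter at a mean log2 CPM of 2 that of ITGA6 was 0.0516. Without KO-1 replicate 1 the adjusted p was 0.313 for ITGB4, 0.443 for ITGA6 and 0.36 for ITGAV, and without KO-1 replicate 2 it was 0.326, 0.417 and 0.417. ITGA6 and ITGAV also lost their calls without control replicate 1 (0.115 and 0.1) or control replicate 2 (0.115 and 0.0993), while ITGB4 stood at 0.038 in both. The calls held without KO-2 replicate 1, with differences of 0.48 for ITGB4, -0.53 for ITGA6 and -0.22 for ITGAV, and without KO-2 replicate 2, with 0.48, -0.26 and -0.31. The ITGA6 difference was thus smaller without KO-2 replicate 2. Over all members limma called 0 without either KO-1 library, where 9 and 11 had an unadjusted p under 0.05 and the background was 0%. The count was 1 without control replicate 1 or 2 (background 0.32% and 0.327%), 10 without KO-2 replicate 1 (5.35%) and 25 without KO-2 replicate 2 (23%). In the authors' deposited table, at the same false discovery rate, 1 member was higher and 6 were lower in KO-2 than in KO-1, where the background was 1.49% (0.507% higher, 0.981% lower). The higher one was ITGB4, and the lower ones were ITGA5, ITGA6, ITGAV, ITGB8, COL3A1 and COL5A2, so that collagens were among them. By limma COL3A1 and COL5A2 narrowly missed a call between the guides (adjusted p = 0.0546 and 0.0544). Both KO-2 libraries lay on 1 side of both KO-1 libraries for 28 members, 7 higher and 21 lower, 46.7% of 60, where 44.2% of all genes tested did (22.3% higher, 21.9% lower).

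ITGA5, the fibronectin receptor chain, showed a like pattern without a limma call between the guides. In the authors' deposited table ITGA5 was called lower in KO-2 than in KO-1 (-0.47, false discovery rate 0.0454). It stood at 4.94 and 4.98 in control, 5.54 and 5.30 in KO-1, and 4.91 and 4.99 in KO-2. KO-1 was higher than control by 0.46 (adjusted p = 0.0063), KO-2 lay at the control level with -0.01 (adjusted p = 0.97), and the 2 guides differed by -0.47 with an adjusted p of 0.055. The KO-1 call was lost without KO-1 replicate 1 (0.0927) or control replicate 1 (0.0685). For the mean of both guides ITGA5 differed by 0.23 (adjusted p = 0.075), and it was called with library medians set equal (0.0393), with quantile normalization (0.0392), and without KO-2 replicate 1 (0.017) or KO-2 replicate 2 (0.0417).

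Because trimers and pairs need their chains in proportion, the ratios of partner chains per kilobase were also set out, as a description with no test. LAMB1 and LAMB2 are not partners but beta chains that take the same place in a trimer, and their ratio is given beside the others. LAMC1 exceeded LAMA5 by a factor of 1.81 and 1.79 in control, 3.22 and 3.11 in KO-1, and 3.33 and 2.48 in KO-2. The ratio of LAMB1 to LAMB2 was 1.30 and 1.43 in control, 1.98 and 1.78 in KO-1, and 1.86 and 1.55 in KO-2. Both laminin ratios were thus higher in every knockout library than in control. COL4A1 to COL4A2 stood at 1.37 in both control libraries, at 1.22 in both KO-1 libraries, and at 1.25 and 1.19 in KO-2. COL1A1 to COL1A2 stood at 0.211 and 0.224 in control, 0.254 and 0.232 in KO-1, and 0.220 and 0.258 in KO-2. The type IV ratio was lower in every knockout library, while the type I ratio overlapped between the groups. ITGAV to ITGB1 fell from 0.722 and 0.714 in control to 0.594 and 0.589 in KO-1 and 0.475 and 0.559 in KO-2. ITGA6 to ITGB4 stood at 2.41 and 2.26 in control, 3.41 and 3.27 in KO-1, and 1.99 and 1.66 in KO-2. It is the ratio in this set that lay above control with 1 guide and below it with the other.

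**Figure D4:**
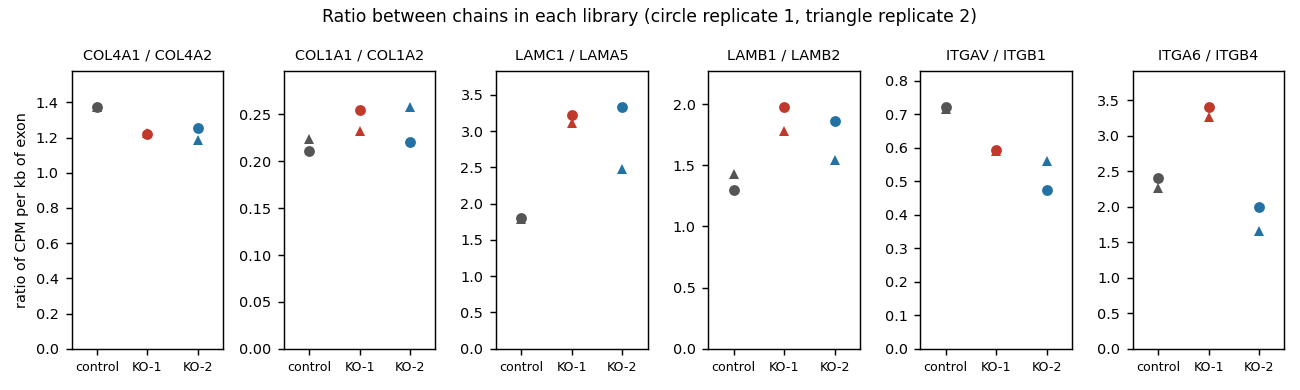
Ratios of partner chains, and of the alternative beta chains LAMB1 and LAMB2. Each is in CPM per kilobase of exon, with 1 point per library in control, KO-1 and KO-2. LAMC1 to LAMA5 is 1.79 to 1.81 in control and 2.48 to 3.33 in the knockout libraries, and ITGA6 to ITGB4 is above control in KO-1 and below it in KO-2.

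Other genes of the same system were read from lists of related genes. Of 29 tested genes that fold, process or secrete collagen, 3 were higher and 7 lower in the mean of both guides. Their median was 0.03 where all genes tested had -0.01, and the background of calls was 14.6% higher and 14.9% lower. The lower ones included FKBP10, a collagen chaperone (-0.38, adjusted p = 0.00031), P3H4, a subunit of the prolyl and lysyl hydroxylase complexes (-0.56, adjusted p = 0.00041), and PCOLCE, which enhances removal of the procollagen end (-0.47, adjusted p = 0.00089). P3H2, a prolyl 3-hydroxylase of basement membrane collagen, was higher (0.42, adjusted p = 0.00084). Of 24 other glycoproteins of the basement membrane and matrix, 5 were higher and 1 lower, with a median of 0.13. They included MATN2 (0.50, adjusted p = 0.00036), NTN4, which binds laminin gamma chains (0.32, adjusted p = 0.00045), and NPNT, an integrin ligand (0.31, adjusted p = 0.0014).

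Of 12 receptors for collagen or laminin that are not integrins, 3 were higher and 2 lower, with a median of 0.00. CD44, a receptor for hyaluronan and collagen, rose by 0.66 (adjusted p = 5.2e-06), and SDC4, a heparan sulfate proteoglycan of focal adhesions, by 0.65 (adjusted p = 6.1e-05). Of 37 integrin adaptors and focal adhesion genes, 5 were higher and 5 lower, with a median of -0.03. SHARPIN and ITGB1BP1, both known to hold integrins inactive, were lower, by -0.61 (adjusted p = 0.00043) and -0.53 (adjusted p = 0.0011). The other lower ones were FLNA, TSPAN4 and ZYX, and the higher ones were ACTN4, CD9, DST, LIMS1 and PXN. Against the background of 14.6% higher and 14.9% lower, the counts of the adaptors were close to it. The folding list leaned to lower calls and the glycoprotein list to higher ones. These counts rest on few genes, and nothing particular to a list is read from them.

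For the 21 members called in the main comparison, 9 kept the call under each alternative run. They included COL11A2, COL17A1, COL1A2, COL4A4, ITGB1, ITGB8 and LAMC1, which were higher in the knockout groups, and COL2A1, which was lower.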

How the data were processed

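RNA of CAL51 cells was measured by bulk sequencing in 6 libraries, grouped by their titles. The submitters' processing notes list STAR 2.7, fastp, edgeR, and featureCounts with Subread 2.0, and hg38 for human reads. The annotation and strand setting used are not given in the sources. The authors deposited log2 CPM values for 14788 genes and a table of their own comparisons with log2 fold changes, p-values and false discovery rates. The log2 CPM values were used as deposited. They share a minimum of -3.29, which stands for a prior of 0.102 CPM, and subtracting it gave whole reads for all values at a tolerance of 0.01 reads; the read numbers in the text are these. Because this prior is part of each value, log2 differences understate the changes of low genes.

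Genes with at least 1 CPM in at least 2 of 6 libraries were tested (13765 kept, 1023 removed). limma (version 3.58.1, R 4.3.3) was fitted to the 3 group means with a mean-variance trend, 3 residual and 8.02 prior degrees of freedom, and p-values were adjusted by Benjamini and Hochberg over all genes tested; the script was tested on simulated data. Adjusted p-values in the text come from this fit. Counting error alone allows up to 3 reads, or 0.115 to 0.230 CPM, where a library has 0 reads. Levels between genes were compared as CPM per kilobase of exon in GENCODE 29, which holds 62 of the 63 members; coordinates are from GENCODE (GRCh38) and promoters from RefSeq (GRCh38.p14). ITGB1P1 has no model there.

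The members and lists were chosen with earlier results of these data known. Members given with every library's value were those called for the mean of both guides, without overlap and averaging a log2 CPM of 1 or more, up to 12 a direction (15 higher and 4 lower met this), those called between the guides in the same way, and the leading member of each family; ITGB3, COL9A2, COL4A2, COL5A2, ITGA10 and uncalled members were added after their values were seen. The alternatives were other filters, pseudocount, scaling, trend, a replicate block and leaving out each library, and voom on the recovered reads was added after seeing the data. The numbers of the replicates did not pair the libraries. The mouse samples of the series were not used here. Counts over the members include 1 gene whose own result is not reported here.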

Additional observations from a re-analysis of the deposited data

Results flagged for a closer look

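The integrin chains ITGB4, ITGA6 and ITGAV differed between the 2 guides by a test of that difference itself, KO-2 against KO-1 in limma. ITGB4 was 0.48 higher in KO-2 in log2 (adjusted p = 0.014), with both KO-2 libraries above both KO-1 libraries. ITGA6 was at -0.39 (adjusted p = 0.047) and ITGAV at -0.27 (adjusted p = 0.027), with both KO-2 libraries below both KO-1 libraries. KO-2 replicate 1 stood apart from the other libraries on the second principal component, and KO-2 replicate 2 on the third. Without KO-2 replicate 1 the differences were 0.48, -0.53 and -0.22, and without KO-2 replicate 2 that of ITGA6 was smaller, as given above. All 3 calls were lost without either KO-1 library, as were the calls of all genes tested.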

How the results depend on the processing

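Of the 21 members called for the mean of both guides, and of those called with either guide or between the guides, 0 changed direction under the alternatives run. Of the 39 not called, 16 changed sign in at least 1 alternative, each with a log2 difference of at most 0.32 and each without a call there; COL12A1 became -0.10 without control replicate 1, LAMA3 0.07 without control replicate 2 and LAMA5 0.07 without KO-2 replicate 1. Leaving out 1 library at a time gave 9 to 33 called members for the mean of both guides (21 with all libraries), 13 to 37 for KO-1 (26), 5 to 28 for KO-2 (14) and 0 to 25 for KO-2 against KO-1 (3). In these fits a lone library is assumed to vary like the other groups. Without the mean-variance trend the counts were 12, 14, 0 and 0; at an unadjusted p under 0.05 the last 2 comparisons then held 17 and 12 members, and voom called 19 and 5. Voom on the recovered reads, chosen after seeing the data, called 5 members between the guides, 1 higher and 4 lower. It scaled to the summed reads. For the mean of both guides its median over all genes tested was -0.04, against -0.01 in the main fit. The member calls it gained there were 1 higher and 4 lower, and whether the shift bears on them was not tested. With the other alternatives the counts were within 1.5 times the main ones: 20 to 24 for the mean of both guides, 25 to 27 for KO-1, 11 to 17 for KO-2 and 2 to 3 between the guides. Of the 21 calls for the mean of both guides, leaving out control replicate 1 or 2 ended 12 or 9, leaving out KO-1 replicate 1 or 2 ended 8 or 6, leaving out either KO-2 library ended 0, and dropping the trend ended 9: COL1A1 (0.0531), COL26A1 (0.0745), COL4A2 (0.115), COL5A2 (0.119), COL6A2 (0.0672), COL9A2 (0.0586), ITGB3 (0.115), LAMA4 (0.0616) and LAMB2 (0.0699).

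Replicates with the same number did not deviate together (correlations of -0.05, 0.04 and -0.04), so the numbers are not a pairing; with the replicate block the counts were 22, 26, 11 and 2. For the mean of both guides the block ended the call of COL9A2 (adjusted p = 0.0534) and gave calls to COL7A1 (0.0193) and ITGA9 (0.0331). Between the guides it ended those of ITGA6 (0.0525), KANK2 (0.0693) and SDC2 (0.0579). The planned edgeR and DESeq2 tests were not run, because the deposited values are log2 CPM. With 2 libraries a group and KO-2 replicate 1 at 13222933 reads, members with few reads had wide intervals, such as -0.19 to 1.81 for COL14A1.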

Other observations

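Beyond the members, 4 genes of the related lists, which held 29, 24, 12 and 37 tested genes, differed between KO-2 and KO-1 by limma. Over all genes tested 1.14% were called (0.334% higher, 0.806% lower), and the 4 were named after their values were seen. DAG1, the laminin receptor dystroglycan, stood at a log2 CPM of 9.58 and 9.58 in control, 9.44 and 9.40 in KO-1, and 9.68 and 9.67 in KO-2, a difference of 0.26 (adjusted p = 0.023). KANK2, which links talin to microtubules, was 0.28 higher in KO-2 than in KO-1 (adjusted p = 0.038). SDC2, a heparan sulfate proteoglycan, stood at 8.44 and 8.50 in KO-1 and at 8.24 and 8.03 in KO-2, a difference of -0.33 (adjusted p = 0.044). P3H2 stood at 5.72 and 5.64 in control, 6.35 and 6.35 in KO-1, and 5.83 and 5.89 in KO-2, a difference of -0.49 (adjusted p = 0.013). As with the integrins, all 4 calls were lost without either KO-1 library, as were the calls of all genes tested, so this loss is not particular to them. Without control replicates 1 and 2 the calls of DAG1 (0.0899 and 0.088), KANK2 (0.126 and 0.125) and SDC2 (0.115 and 0.113) were lost too, and P3H2 stood at 0.0468 and 0.0455. All 4 were lost without the mean-variance trend (0.212 to 0.273), and SDC2 with a filter at a mean log2 CPM of 2 (0.0504). DAG1 and KANK2 lay on the side of ITGB4, SDC2 and P3H2 on the side of ITGA6 and ITGAV.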
